A study of Mus musculus with 5 samples.

Results

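The comparison described here is between skeletal muscle mesenchymal cells collected 5 days (library SC10) and 3 days (library SC5) after polytrauma. SC10 held 11603 cells and SC5 held 6201 cells after filtering, 17804 of the 34439 cell barcodes in the series of 5 libraries. Cells were kept where they had between 350 and 8000 detected genes, at least 1000 UMIs (unique molecular identifiers, which count single RNA molecules) and under 20% of UMIs on mitochondrial genes. Of the SC10 barcodes that passed, 338 were left out because SC_9 holds them as well. UMIs were summed per library over autosomal genes, and a level is given as CPM, the UMIs of a gene per 1000000 autosomal UMIs of that library. All mice were Prx1Cre;mTmG on the C57Bl/6 strain background, in which Prx1-Cre switches a reporter to GFP in limb mesenchyme and its descendants. GFP+ cells were sorted from skeletal muscle around the tibia, without periosteum or bone marrow. Polytrauma joins a non-stabilized tibial fracture to a mechanical injury of the adjacent muscles. Each library was a pool of 2 mice.

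The day assigned to SC5 does not come from its deposited label. That label reads d5 post-fracture, while the number of cells that the study states for each condition matches SC5 to d3 post-polytrauma, and SC_9, deposited as d3 post-polytrauma, to d5 post-fracture. Were the deposited labels followed, day 5 against day 3 after polytrauma would be SC10 against SC_9, which gave 124 genes higher and 743 lower in SC10 and turned many of the ratios below. The names SC5, SC10 and SC_9 are therefore used throughout, and the direction from day 3 to day 5 rests on that assignment. SC4 was deposited as d3 post-fracture and SC3 as uninjured. Each condition had 1 library, so no difference below has a replicate check or a test. The intervals printed cover counting error only.

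Mesenchymal progenitors of skeletal muscle, also known as fibro-adipogenic progenitors, lie between the muscle fibres and respond to damage by dividing, by releasing chemokines that draw leukocytes, and by depositing a collagen-rich matrix. Next to a fracture, the study describes cells of this lineage that pass through a fibrogenic state while still in muscle. They later enter the callus, where some form cartilage and bone. Loss of progenitor genes and gain of matrix genes are the usual signs of that passage, and fibrous tissue that persists is known to hinder bone union.

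SC3, SC4 and SC5 drew their barcodes from one set and shared 405 to 525 barcodes pairwise. SC_9 and SC10 drew theirs from another and shared 944, and SC5 shared 0 with SC10. The labels name 1 kit version for all libraries. Day and barcode set cannot be told apart between SC10 and SC5. For this reason the ratio of SC_9 to SC4 is printed beside many of the results, though not all. That pair crosses the same barcode sets and holds neither SC10 nor SC5. By the assignment above it is also day 5 against day 3, after fracture. Day and barcode set cannot be told apart in that pair either. The median cell had 16046 UMIs and 3779 genes in SC10, and 15688 UMIs and 3144 genes in SC5. Of the 14 hematopoietic markers, 8 were tested and all 8 were called lower in SC10 (100%, against 3.48% of all tested genes). However, 7 of the 8 were below 5 CPM in SC10 and were tested only through SC5, where they were higher. The count follows in part from that limit. Summed levels of the markers were 156 CPM in SC5 and 37.0 CPM in SC10. Cells with UMIs of at least 2 of 11 such markers made up 1.42% of SC5 (95% exact binomial interval 1.14 to 1.75) and 0.235% of SC10 (0.155 to 0.342), each cell having been thinned to 2000 UMIs (3.16% and 1.03% without thinning). Leaving out all cells with UMIs of at least 2 of 7 of these markers gave 1193 genes higher and 310 lower in SC10 by the rule that follows.

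A gene was tested where it had at least 5 CPM in SC5 or SC10, which 9355 autosomal genes did. Their median log2 ratio of SC10 to SC5 was 0.50, so a gene was called only where it was at least 2-fold apart both as a CPM ratio and after that median was subtracted. SC10 was higher for 1199 genes, 12.8% of those tested, and lower for 326, 3.48%. These 2 shares are the ones to set beside the counts of each gene list below. The same rule called 17.0% of 9778 genes higher and 3.84% lower in SC_9 against SC4. Of the 1199 genes higher in SC10, 790 (65.9%) were also called higher in SC_9 against SC4 and 0 were called lower. Of the 326 lower genes, 132 (40.5%) were also called lower there and 9 were called higher. For 585 of the higher genes (48.8%), SC_9 and SC10 were each at least 2-fold above all of SC3, SC4 and SC5. The reverse held for 50 of the lower genes (15.3%). Every called gene already met the part of this condition that sets SC10 against SC5, and the share over all tested genes was not computed.

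**Figure D1:**
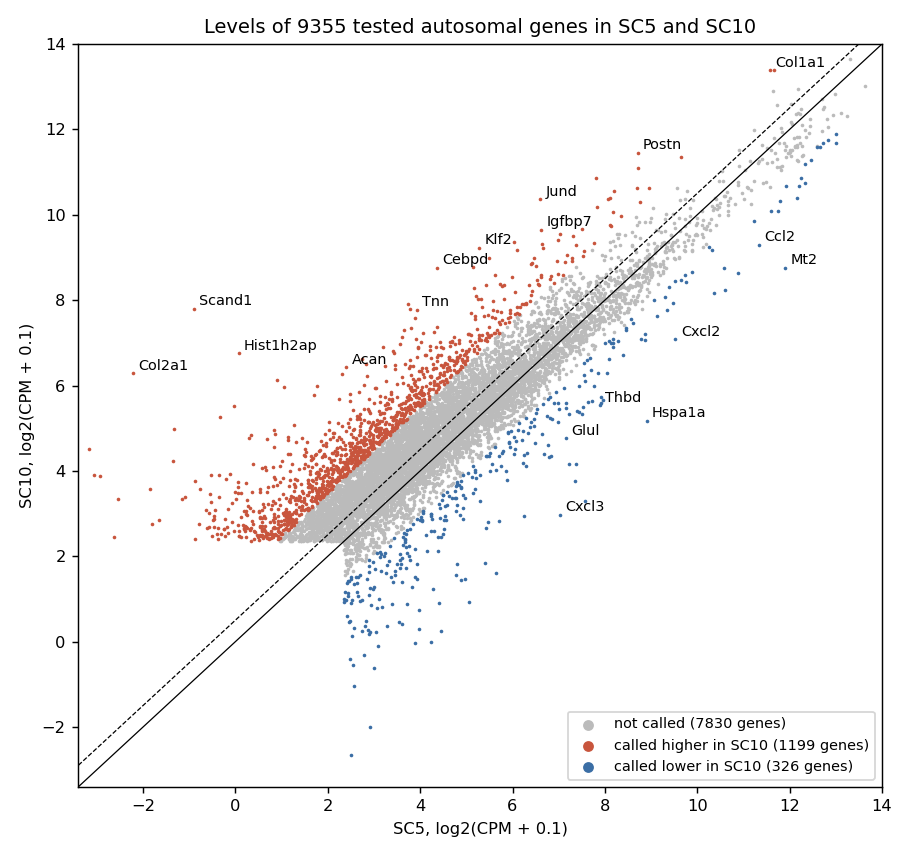
Levels of the 9355 tested autosomal genes, as log2(CPM + 0.1), in SC5 (horizontal axis) and SC10 (vertical axis), 1 point per gene. The solid line marks equal levels and the dashed line the median log2 ratio of 0.50. The 1199 genes called higher in SC10 and the 326 called lower are coloured, and 18 genes described in the text carry names.

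The largest ratios among genes with at least 50 CPM and detection in at least 5% of cells of the higher library were split between regulatory and matrix genes. Scand1, which encodes a SCAN domain protein (chromosome 2, 156311847 to 156312704, GRCm38), was at 0.434 CPM in SC5 and 222 CPM in SC10, a log2 ratio of 9.0 (8.56 to 9.47). It was at 1.05 CPM in SC3 and 0.353 in SC4 against 178 in SC_9, so its levels split the libraries by barcode set. Under the assignment used here that is also a split by day. The histone gene Hist1h2ap (log2 6.83), Ier5l (5.30), Zfp771 (4.99), Taf10, a subunit gene of the general transcription factor TFIID (4.18), and Prr7 (4.13) split the libraries in the same way. For each of them, SC_9 and SC10 were at least 2-fold above the other libraries. Histone genes lie in families of near-identical copies, and the value of Hist1h2ap is uncertain for that reason.

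C1qtnf3, a secreted C1q/TNF-related protein gene, was at 13.7 CPM in SC5 and 220 CPM in SC10 (log2 4.00). Tnn, which encodes the matricellular protein tenascin-W, was at 15.1 and 219 CPM (log2 3.86). Filip1l was at 4.89 and 76.6 CPM, with 56.4 CPM in SC3. SC_9 stood above SC10 for C1qtnf3 (1044 CPM) and Tnn (469 CPM).

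Among the leading genes lower in SC10, Saa3, an acute phase protein gene, was at 163 CPM in SC5 and 13.4 CPM in SC10 (log2 -3.60). Penk, the proenkephalin gene, was at 148 CPM in SC5 and 17.7 CPM in SC10 (log2 -3.06). Thbd and Procr, which encode thrombomodulin and the endothelial protein C receptor and act together on protein C, were at 237 and 114 CPM in SC5 against 46.2 and 20.1 CPM in SC10. Penk, Thbd and Procr were not called in SC_9 against SC4. In SC3 they were at 52.7, 149 and 330 CPM, so only Procr was above its SC5 level there. Glul, the glutamine synthetase gene, was at 143 and 27.0 CPM, with 543 CPM in SC3, and was not called in SC_9 against SC4 either. Nme2 (165 and 17.7 CPM), Tmem267 (51.8 and 7.02 CPM) and Lmcd1 (111 and 19.9 CPM) were called lower in both pairs. For Nme2, SC_9 and SC10 were each at least 2-fold below the other libraries.

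Chemokine genes were lower in SC10 wherever they were called. The promoters of 3 neighbouring CXC chemokine genes that were lower in SC10 are shown because they share a run of letters of the kappaB type, the class of sites bound by NF-kappaB. They are the 250 bases before each start, plus strand, on chromosome 5 of GRCm38.p6 from RefSeq (chr5:90890995-90891244 for Cxcl1, chr5:90903649-90903898 for Cxcl2 and chr5:90785851-90786100 for Cxcl3), with the letters GGGAATTTC in capitals.
Cxcl1: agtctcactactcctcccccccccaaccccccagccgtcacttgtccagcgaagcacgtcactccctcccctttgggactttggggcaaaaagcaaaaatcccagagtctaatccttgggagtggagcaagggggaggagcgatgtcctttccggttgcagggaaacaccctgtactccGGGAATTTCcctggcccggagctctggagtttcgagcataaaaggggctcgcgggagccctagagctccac
Cxcl2: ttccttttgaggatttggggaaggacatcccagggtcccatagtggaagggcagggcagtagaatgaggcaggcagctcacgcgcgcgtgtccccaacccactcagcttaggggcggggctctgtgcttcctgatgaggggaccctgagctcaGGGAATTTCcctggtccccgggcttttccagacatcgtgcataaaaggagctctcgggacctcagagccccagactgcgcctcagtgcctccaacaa
Cxcl3: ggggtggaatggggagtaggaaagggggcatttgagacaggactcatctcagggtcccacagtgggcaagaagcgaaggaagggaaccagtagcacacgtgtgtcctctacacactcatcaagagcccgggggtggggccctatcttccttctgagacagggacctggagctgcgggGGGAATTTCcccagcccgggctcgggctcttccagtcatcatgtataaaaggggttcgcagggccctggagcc

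Both strands were searched for GGGAATTTC, whose complement reads GAAATTCCC, and 64 of 25748 promoters of this length held it, 0.249%. Of 21 CC and CXC chemokine genes, 14 had a promoter in the table and 4 of these held the letters, namely Cxcl1, Cxcl2, Cxcl3 and Cxcl9. Among the 6 matched chemokine genes called lower, 3 held them. These 3 are the neighbouring genes shown above, which were picked because they share the letters. The count was therefore largely set in advance and is no test of enrichment. A match describes the letters and not a bound site.

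Of the 7 tested CC chemokine genes, 6 were called lower in SC10 (85.7%, against 3.48% of all tested genes) and 0 higher. Their median log2 ratio was -2.03, against 0.50 over all tested genes. However, 2 of the 7 passed the level limit through SC5 alone, where they were higher. Ccl2, the monocyte chemoattractant gene, was at 2568 CPM in SC5 and 630 CPM in SC10 (log2 -2.03). Ccl11, the eotaxin gene, was at 75.6 and 7.57 CPM (log2 -3.32), and Ccl7 at 1232 and 799 CPM without a call. Of the 9 tested CXC genes, 4 were called lower and 0 higher, with a median of -0.85. The 4 encode neutrophil-attracting chemokines and lie close together on chromosome 5. Cxcl1 was at 3074 and 1096 CPM, Cxcl2 at 737 and 136 CPM, Cxcl3 at 130 and 7.72 CPM, and Cxcl5 at 1891 and 396 CPM. Cxcl12, which holds stem cells and leukocytes in their niche, was at 571 and 331 CPM without a call.

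In SC4 and SC_9 the same genes were at 2735 and 237 CPM for Ccl2, 672 and 71.4 CPM for Cxcl2, and 936 and 270 CPM for Cxcl5. Ccl11 did not follow them, with 32.2 CPM in SC4 and 48.6 CPM in SC_9. Its highest level was in uninjured muscle, at 1458 CPM in SC3. Among thinned cells, 86.9% (86.0 to 87.7) of SC5 and 46.4% (45.4 to 47.3) of SC10 held UMIs of at least 3 of the 21 chemokine genes, or 98.2% and 84.7% without thinning. Of the 87 SC5 cells with at least 2 hematopoietic markers, 41.4% had a Ccl2 UMI, against 81.3% of the 6031 other cells. In SC10 the 2 shares were closer, at 33.3% of 27 such cells and 37.7% of the 11458 others.

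Cytokines of the IL-6 family and IL-33 were lower for 5 of 13 tested genes and higher for 1. Il6 was at 174 CPM in SC5 and 63.7 CPM in SC10 (log2 -1.45), Il11 at 232 and 78.1 CPM (log2 -1.57), and Il33 at 167 and 42.0 CPM (log2 -1.99). Il1rl1, the receptor for IL-33, was at 443 and 137 CPM (log2 -1.69). The exception was Socs3, an inhibitor of cytokine signalling, at 92.1 CPM in SC5 and 355 CPM in SC10 (log2 1.95). It was higher still in SC_9, at 771 CPM against 85.7 CPM in SC4.

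Of 15 fibrillar and fibril-associated collagen genes, all tested, 11 were called higher (73.3%, against 12.8% of all tested genes) and 0 lower, 2 of the 15 being under 5 CPM in 1 library, with a median log2 ratio of 1.68. Col1a1, the main chain of type I collagen (chromosome 11, 94936224 to 94953042), was at 3037 CPM in SC5 and 10710 CPM in SC10 (log2 1.82). Col1a2 was at 3250 and 10768 CPM and Col5a2, which regulates fibril width, at 495 and 1585 CPM. Col3a1, at 3202 and 7680 CPM (log2 1.26), missed the call once the median was subtracted. Each of these collagens was also higher in SC_9 than in SC4, with 24912 against 5678 CPM for Col1a1, and the median of the list there was 1.53.

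Among 21 genes of the non-collagen fibrous matrix, 5 were called higher (23.8%), 0 lower, and the median was 1.24. For SC_9 against SC4, 9 of 21 were called higher and 0 lower, with a median of 1.41. Postn, which encodes the matricellular protein periostin (chromosome 3, 54361109 to 54391037), was at 418 CPM in SC5 and 2793 CPM in SC10, a log2 ratio of 2.74. The share of thinned cells with a Postn UMI was 44.7% in SC5 and 91.4% in SC10 (84.1% and 99.3% without thinning). Igfbp7, an insulin-like growth factor binding protein gene, was at 98.4 and 803 CPM (log2 3.03). Aspn, the small proteoglycan asporin, was at 158 and 726 CPM (log2 2.20), and the fibronectin gene Fn1 at 798 and 2594 CPM (log2 1.70). SC3 held 237 CPM of Postn and 270 CPM of Igfbp7. Sparc, abundant everywhere, was at 4651 CPM in SC5 and 7830 CPM in SC10 without a call. Among thinned cells, those with UMIs of all 5 fibroblast genes that the study used (Col1a1, Sparc, Col3a1, Col5a1 and Postn) made up 21.0% of SC5 (20.0 to 22.0) and 76.5% of SC10 (75.7 to 77.3), beside 45.3% of SC4 and 76.1% of SC_9. Without thinning the shares were 78.7% in SC5 and 98.6% in SC10. Cells that should lack these transcripts held some of them: a Postn UMI was found in 63.0% of the 27 SC10 cells with at least 2 hematopoietic markers, against 91.5% of the 11458 others, and in 10.3% of the 87 such cells of SC5, against 45.2% of the 6031 others. The part of free RNA or doublets in these shares was not tested.

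Enzymes that modify and cross-link collagen were less uniform. Of 22 tested, 4 were called higher (Crtap, P3h3, P3h4 and P4ha3, which serve prolyl or lysyl hydroxylation) and 0 lower. The share called higher was 18.2%, beside 12.8% of all tested genes, and 2 of the 22 were under 5 CPM in 1 library. P3h4 was at 25.9 CPM in SC5 and 130 CPM in SC10 (log2 2.32). The abundant members were not called. The collagen chaperone gene Serpinh1 was at 2534 and 2354 CPM, and the lysyl oxidase gene Lox at 503 and 910 CPM. The 15 endoplasmic reticulum chaperones had a median of -0.05, with 0 called higher and 1 lower, Sdf2l1 at 82.8 and 32.4 CPM.

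Matrix-degrading enzymes and their inhibitors were called higher for 5 of 16 tested genes (31.3%) and lower for 0, 2 of the 16 being under 5 CPM in 1 library. The median of the list was 0.64, and 1.41 in SC_9 against SC4, where 5 of 15 were called higher and 0 lower. Mmp14, a membrane-bound collagenase, was at 112 CPM in SC5 and 362 CPM in SC10 (log2 1.69). The inhibitor gene Timp2 was at 86.1 and 470 CPM (log2 2.45), while the gelatinase gene Mmp2 was at 302 and 409 CPM and was not called.

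**Figure D2:**
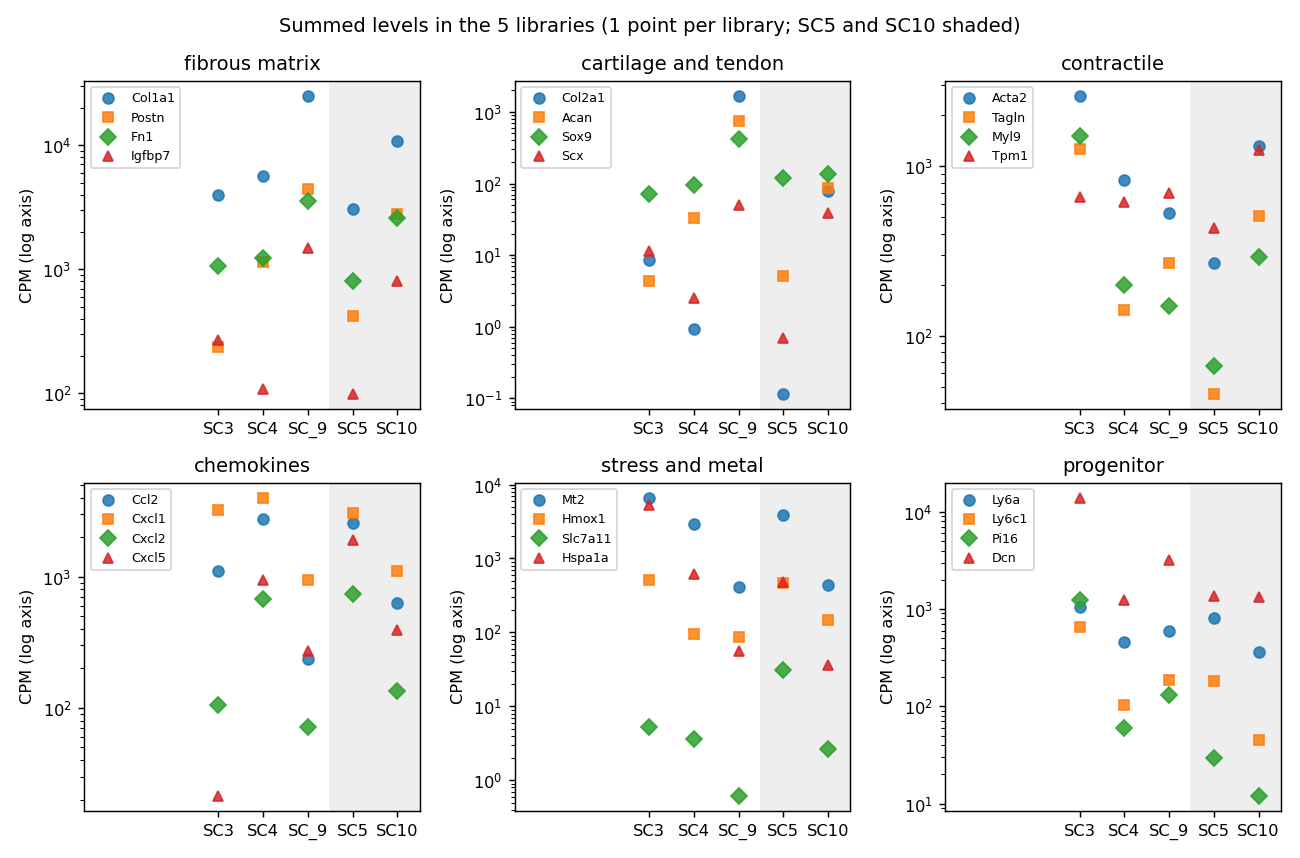
CPM on a log axis of 24 genes in 6 groups for the 5 libraries, 1 point per library, with SC5 and SC10 shaded. Postn was at 418 CPM in SC5 and 2793 in SC10, Ccl2 at 2568 and 630, and Acta2 at 269 and 1325, while SC_9 lay above SC10 for Col2a1 (1672 and 77.9 CPM) and below it for Acta2 (531 CPM).

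Genes of the smooth muscle contractile apparatus were called higher for 6 of 11 tested members (54.5%) and lower for 0, with a median log2 ratio of 1.54. Of the 11, 1 was under 5 CPM in 1 library. Acta2, smooth muscle actin and the usual marker of myofibroblasts (chromosome 19, 34241090 to 34255590), was at 269 CPM in SC5 and 1325 CPM in SC10 (log2 2.30). Tagln, the actin-binding transgelin gene, was at 45.1 and 510 CPM (log2 3.50), and the myosin light chain gene Myl9 at 66.4 and 290 CPM (log2 2.13). Acta2 UMIs were found in 22.6% (21.6 to 23.7) of SC5 cells and in 65.9% (65.0 to 66.7) of SC10 cells after thinning, and in 55.1% and 88.8% before it. The 5% of cells richest in Acta2 held 55.1% of its thinned UMIs in SC5 and 25.1% in SC10.

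Acta2 was at 2602 CPM in SC3, 826 in SC4 and 531 in SC_9, and the median of the list in SC_9 against SC4 was 0.11, with 2 members called higher and 1 lower. Mural cell markers were measured beside them, since pericytes express contractile genes. Of 8 mural markers 5 were tested and 0 called, their summed levels were 70.6 CPM in SC5 and 113 CPM in SC10, and cells with at least 2 of 5 of these markers made up 0.360% of SC5 and 0.662% of SC10 after thinning.

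Cartilage genes were near the detection floor in SC5. Of 22 listed genes, 21 were autosomal and 15 were tested, and 12 of these were called higher and 0 lower. Only 5 reached 5 CPM in both libraries, so most passed the level limit through SC10 alone, and their median of 3.69 follows in part from that limit. Col2a1, the main collagen of cartilage (chromosome 15, 97975602 to 98004695), had 11 UMIs in all of SC5, 0.114 CPM, and 14536 UMIs in SC10, 77.9 CPM. Its log2 ratio was 9.42 (8.58 to 10.42). Acan, the aggrecan core protein gene, was at 5.17 and 85.9 CPM (log2 4.05), and Col11a1 at 14.8 and 191 CPM (log2 3.69). Sox9, the transcription factor that starts chondrogenesis, was at 119 and 136 CPM and was not called.

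The share of SC10 cells with a UMI ranged widely between these genes. Col2a1 UMIs were found in 1.58% (1.36 to 1.82) of thinned SC10 cells and in 2 of 6118 SC5 cells, or 5.26% and 0.145% without thinning. Col11a1 UMIs were found in 24.2% of thinned SC10 cells and in 153 of 6118 SC5 cells, and Sox9 UMIs in 20.9% and 19.0%. Acan UMIs were found in 9.37% of thinned SC10 cells (24.8% without thinning), and the richest 5% of cells held 73.5% of them. Of the 27 SC10 cells with at least 2 hematopoietic markers, 2 had an Acan UMI and 1 a Col2a1 UMI. Among the 11458 other cells the shares were 9.37% and 1.57%. Cells with UMIs of at least 2 of Col2a1, Acan and Fgfr3 made up 1.04% (0.859 to 1.24) of thinned SC10 cells and 0 of 6118 in SC5 (exact upper limit 0.0603%). Without thinning these shares were 3.27% and 0.161%. SC_9 stood far above SC10, with 1672 CPM of Col2a1, 747 CPM of Acan and 15.4% of cells with at least 2 of the 3 markers.

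Of 14 osteogenic genes 4 were tested and 2 called higher, both under 5 CPM in SC5 and tested only through SC10. For SC_9 against SC4, 4 of 6 tested osteogenic genes were called higher and 0 lower, with a median of 3.41. Ibsp, the bone sialoprotein gene, had 1 UMI in SC5 and 4270 in SC10, which lay in 1.18% of SC10 cells (0.401% after thinning). Alpl, the alkaline phosphatase gene, was at 1.39 and 7.39 CPM (log2 2.41). Runx2, the osteoblast transcription factor, was at 30.7 and 63.4 CPM and Spp1, the osteopontin gene, at 347 and 731 CPM, neither called. Tendon genes were tested for 5 of 9 members and called higher for 2, and 3 of the 5, Scx among them, were under 5 CPM in SC5. Scx, the tendon transcription factor, was at 0.692 CPM in SC5 and 38.3 CPM in SC10 (log2 5.79), in 0.114% and 5.80% of thinned cells. Thbs4, a tendon matrix gene, was at 184 and 525 CPM. Kera, one of the tenocyte markers that the study used, was at 4.97 and 8.02 CPM and not called. Cells with UMIs of at least 2 of Scx, Kera and the X-linked Tnmd made up 0.327% (0.200 to 0.504) of SC5 and 2.55% (2.27 to 2.86) of SC10 after thinning, and 2.45% and 10.4% before it.

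Calls in the growth factor pathways varied from list to list. In the TGF-beta pathway 2 of 16 genes were called higher, near the share of all genes, and 1 lower. Tgfb1 was at 3.31 CPM in SC5 and 63.9 CPM in SC10 (log2 4.27), with SC_9 at 54.1 CPM and SC4 at 3.87 CPM. Being under 5 CPM in SC5, Tgfb1 was tested only through SC10. The intracellular inhibitor gene Smad7 was at 22.7 and 89.2 CPM, and Inhba, which encodes the activin A subunit, at 632 and 268 CPM (log2 -1.24). Among 15 tested BMP pathway genes 0 were called higher and 2 lower, the ligand genes Bmp2 at 23.3 and 8.97 CPM and Gdf10 at 8.66 and 3.84 CPM. Of the 15, 3 were under 5 CPM in 1 library, among them Gdf10, which was tested only through SC5.

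Wnt pathway genes were called higher for 5 of 11 tested members and lower for 2. However, 4 of the 11 were under 5 CPM in 1 library and were tested only through the other. The median of the list was 1.46, and 2.20 in SC_9 against SC4, where 8 of 12 were called higher and 0 lower. Sfrp1, which encodes a secreted antagonist of Wnt ligands, was at 68.7 CPM in SC5 and 573 CPM in SC10 (log2 3.06), and the ligand gene Wnt5a at 15.7 and 52.4 CPM (log2 1.74). The antagonist gene Sfrp4 was lower, at 12.9 and 4.53 CPM (log2 -1.51). Among IGF pathway genes 1 of 9 was called higher, Igfbp7 (11.1%, under the 12.8% of all tested genes), and Igf1 was at 171 and 298 CPM. For PDGF and FGF genes the calls were 2 of 12 higher (16.7%) and 1 lower (8.33%), beside 12.8% and 3.48% of all tested genes. They were the ligand gene Pdgfc at 12.4 and 39.0 CPM, and the feedback inhibitor genes Spry1 at 5.65 and 25.1 CPM and Spry2 at 127 and 35.5 CPM. Of the 12 PDGF and FGF genes, 2 were under 5 CPM in 1 library.

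Genes induced by oxidative stress through NRF2, together with metallothioneins, were lower for 6 of 15 tested members and higher for 1. Of the 15, 2 were under 5 CPM in 1 library. Mt2, a metal-binding metallothionein gene (chromosome 8, 94172664 to 94173568), was at 3824 CPM in SC5 and 433 CPM in SC10, a log2 ratio of -3.14. Mt1 was at 4553 and 1340 CPM (log2 -1.76). Hmox1, which breaks down heme, was at 465 and 148 CPM (log2 -1.66), and the cystine transporter gene Slc7a11 at 31.5 and 2.65 CPM (log2 -3.57). Hmox1 was at 95.8 CPM in SC4 and 86.2 CPM in SC_9, so the level in SC5 stood above both. Mt2 was at 6644.5 CPM in SC3, 2920 in SC4 and 415 in SC_9. SC_9 and SC10 were thus each at least 2-fold below the other libraries for Mt2. Its levels split the libraries by barcode set, and equally by day under the assignment used here. Gclm, a subunit of the enzyme that makes the glutathione precursor, was the member called higher, at 14.1 and 58.0 CPM. The ferritin genes Fth1, at 6409 and 3068 CPM, and Ftl1, at 5642 and 2486 CPM, were both called lower.

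Hypoxia-induced genes were lower for 5 of 17 tested members and higher for 1, and glycolysis genes lower for 2 of 15 and higher for 0. Of the 17 hypoxia genes, 1 was under 5 CPM in 1 library. Ndrg1 was at 264 CPM in SC5 and 77.8 CPM in SC10 (log2 -1.76), Ddit4, an inhibitor of mTOR, at 182 and 40.1 CPM (log2 -2.18), and the glucose transporter gene Slc2a1 at 112 and 52.8 CPM (log2 -1.09). Egln1, a prolyl hydroxylase that marks HIF1A for breakdown, was higher, at 24.5 and 101 CPM (log2 2.05). The enolase gene Eno1 was at 1217 and 604 CPM (log2 -1.01). The hypoxia list had a median of -0.52 and the glycolysis list one of -0.48. The medians in SC_9 against SC4 were -0.56 and -0.76, with 6 of 16 and 6 of 15 members lower.

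Heat shock genes were lower for 5 of 12 tested members, with a median of -0.75. SC_9 against SC4 gave 6 of 12 lower and a median of -1.04. Hspa1a, an inducible HSP70 gene whose near-identical copy Hspa1b lies beside it, was at 478 CPM in SC5 and 36.1 CPM in SC10 (log2 -3.73). Its level was 5213 CPM in SC3, 614 in SC4 and 55.2 in SC_9, so SC_9 and SC10 were each at least 2-fold below the other libraries. Immediate early genes went the other way, with 10 of 19 called higher (52.6%) and 1 lower, and a median of 1.80. Jun was at 224 and 1864 CPM (log2 3.06), Fos at 418 and 2196 CPM (log2 2.39), Jund at 97.0 and 1317 CPM (log2 3.76) and Klf2 at 38.8 and 601 CPM (log2 3.95). The exception was Fosl1, an AP-1 subunit gene, at 240 CPM in SC5 and 48.1 CPM in SC10 (log2 -2.32). Both lists include genes that cell dissociation is known to induce, and the part of dissociation in either was not tested. The median of the immediate early genes was 1.96 in SC_9 against SC4. Their summed levels were 4466 CPM in SC5, 12841 in SC10, 6512 in SC4 and 22859 in SC_9. Uninjured muscle (SC3) stood above SC10, at 19893 CPM.

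**Figure D3:**
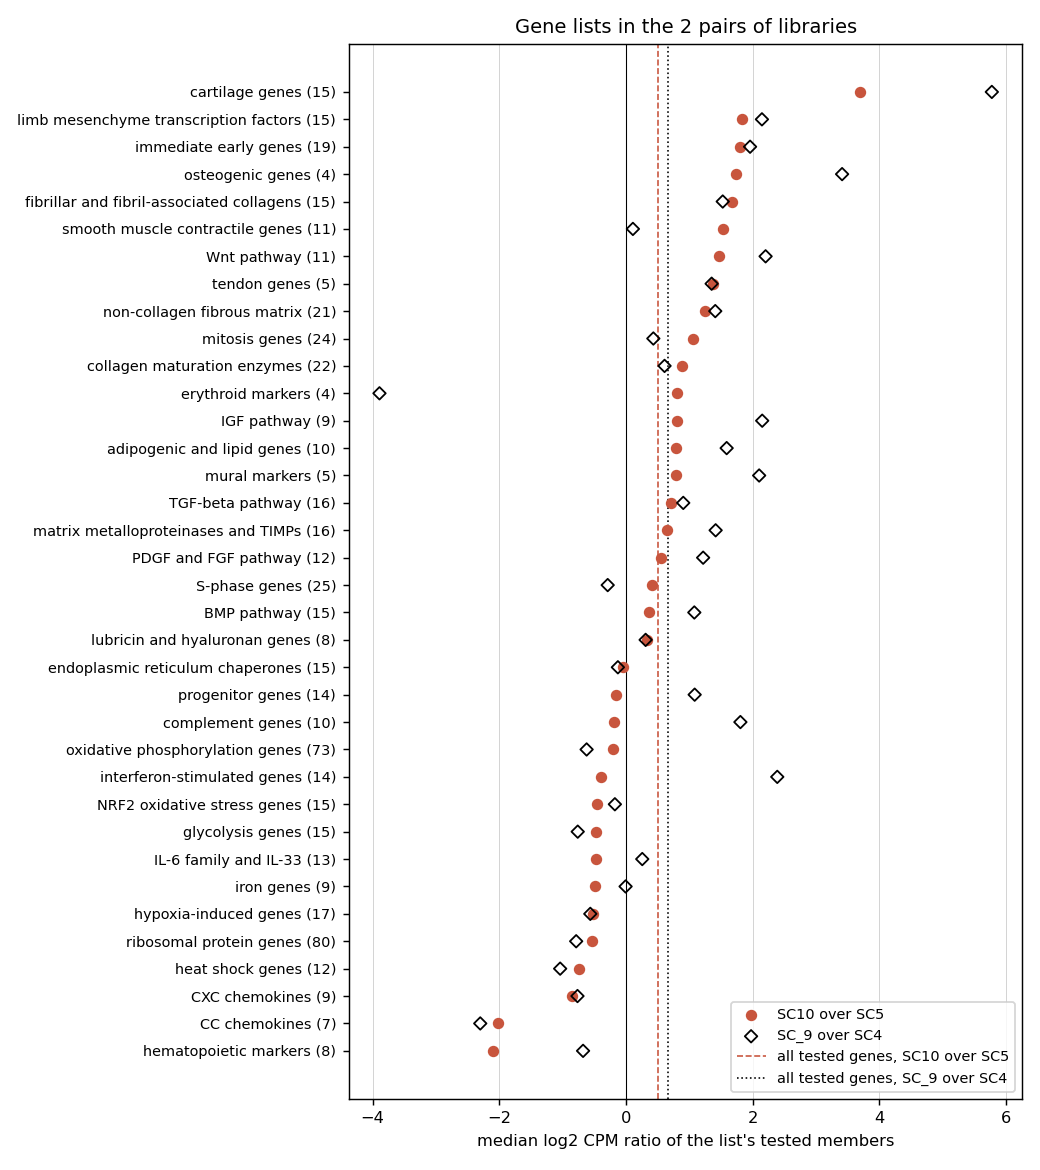
Median log2 CPM ratio of the tested members of 36 gene lists in SC10 against SC5 (filled circles) and in SC_9 against SC4 (open diamonds), with the number tested in SC10 against SC5 in parentheses. Vertical lines mark the medians over all tested genes, 0.50 and 0.66. Lists with fewer than 4 tested members are not drawn.

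Of 25 S-phase genes 0 were called in either direction and the median of 0.40 was close to that of all genes, with Rrm2 at 67.4 CPM in SC5 and 72.2 CPM in SC10 and Tyms at 76.9 and 79.5 CPM. Of 24 mitosis genes 3 were called higher, Mki67, Kif11 and Bub1b (12.5%, near the 12.8% of all tested genes), and 0 lower. Mki67 was at 19.4 and 91.3 CPM (log2 2.24), whereas Birc5 was at 170 and 174 CPM and Ube2c at 129 and 145 CPM. Cells with UMIs of at least 3 mitosis genes made up 19.6% (18.6 to 20.6) of SC5 and 25.7% (24.9 to 26.5) of SC10, beside 21.8% of SC4, 13.1% of SC_9 and 0.103% of SC3. Without thinning these shares were 53.6% in SC5 and 53.3% in SC10.

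Progenitor genes were lower for 3 of 14 tested members (21.4%, against 3.48% of all tested genes) and higher for 0, with a median of -0.16. SC_9 against SC4 went the other way, with 3 of 15 called higher, 0 lower and a median of 1.08. The 3 called lower in SC10 were Ly6a, Ly6c1 and Pi16. Ly6a, which encodes the surface protein Sca1, was at 803 CPM in SC5 and 357 CPM in SC10 (log2 -1.17). Ly6c1 was at 183 and 44.8 CPM (log2 -2.03) and Pi16, a marker of adventitial fibroblast progenitors, at 29.6 and 11.9 CPM (log2 -1.31). In uninjured muscle these 3 genes were at 1057, 649 and 1247 CPM. Dcn, the decorin gene, was at 1354 CPM in SC5 and 1321 CPM in SC10 but at 13985 CPM in SC3, and Prrx1, the gene whose enhancer drives the Cre, was at 194 and 297 CPM, neither called. Cells with at least 3 of Prrx1, Pdgfra, Cxcl12, Ly6a and Cd34 made up 21.6% (20.6 to 22.7) of SC5 and 13.4% (12.8 to 14.1) of SC10 after thinning. The thinned share was 38.3% in SC3, 11.5% in SC4 and 20.2% in SC_9. Without thinning such cells made up 87.9% of SC5 and 82.1% of SC10. Limb mesenchyme transcription factor genes were called higher for 9 of 15 tested members (60.0%) and lower for 0, though only 8 of the 15 reached 5 CPM in both libraries. Prrx2 was at 13.8 and 162 CPM (log2 3.55), Twist1 at 12.7 and 91.0 CPM (log2 2.84) and Hoxa11 at 1.38 and 8.33 CPM (log2 2.59). The median of the list was 1.83, and 2.15 in SC_9 against SC4, where 8 of 15 were called higher and 0 lower. Prrx2 UMIs were found in 2.44% of thinned SC3 cells, 3.60% of SC4, 2.91% of SC5, 21.0% of SC_9 and 26.1% of SC10. For Twist1 these shares were 4.42%, 3.41%, 2.75%, 20.1% and 14.9%. Both genes split the libraries by barcode set, and equally by day under the assignment used here.

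Interferon-stimulated genes were lower for 1 of 14 tested members, Irf7 at 27.3 and 10.1 CPM, and the median was -0.40, while SC_9 against SC4 gave 2.39. Complement genes were lower for 1 of 10, Cfb at 14.6 and 2.74 CPM, and higher for 1, the regulator gene Cd59a at 3.44 and 11.9 CPM. Of the 10, 3 were under 5 CPM in 1 library. Both Cfb and Cd59a were tested only through the library where they were higher. Adipogenic and lipid genes were called higher for 4 of 10 tested members and lower for 1. The transcription factor genes Cebpb, at 35.5 and 435 CPM, and Cebpd, at 20.5 and 432 CPM (log2 4.40), were also higher in SC_9 than in SC4. The fatty acid binding protein genes Fabp4, at 16.3 and 62.7 CPM, and Fabp5, at 226 and 1154 CPM (log2 2.35), were not called in that pair. Lpl, the lipoprotein lipase gene, was lower, at 80.9 and 29.6 CPM. Lubricin and hyaluronan genes were lower for 1 of 8 tested members, the hyaluronan-binding protein gene Tnfaip6 at 1272 and 578 CPM, and Prg4, the lubricin gene, was at 247 and 307 CPM.

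Ribosomal protein genes were lower for 16 of 80 tested members (20.0%, against 3.48% of all tested genes) and higher for 0. Their median was -0.53, and their summed levels were 351920 CPM in SC5 and 244820 CPM in SC10. SC_9 against SC4 gave 23 of 80 lower and 0 higher, with a median of -0.79. Rpl13a was at 1560 CPM in SC5 and 303 CPM in SC10 (log2 -2.36), while Rpl41 was at 12598 and 8283 CPM and not called. Rpl13a UMIs were found in 84.1% of thinned SC3 cells, 90.5% of SC4, 92.2% of SC5, 46.1% of SC_9 and 41.1% of SC10. Many ribosomal protein genes have processed pseudogenes with near-identical sequence. Oxidative phosphorylation genes were lower for 2 of 73 (2.74%, under the 3.48% of all tested genes), with a median of -0.20. Endothelial, myogenic and Schwann cell markers were tested for 1, 1 and 2 genes with 0 called, and of 4 tested erythroid genes 0 were called, among them Hbb-bs at 17.3 and 38.2 CPM.

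**Figure D4:**
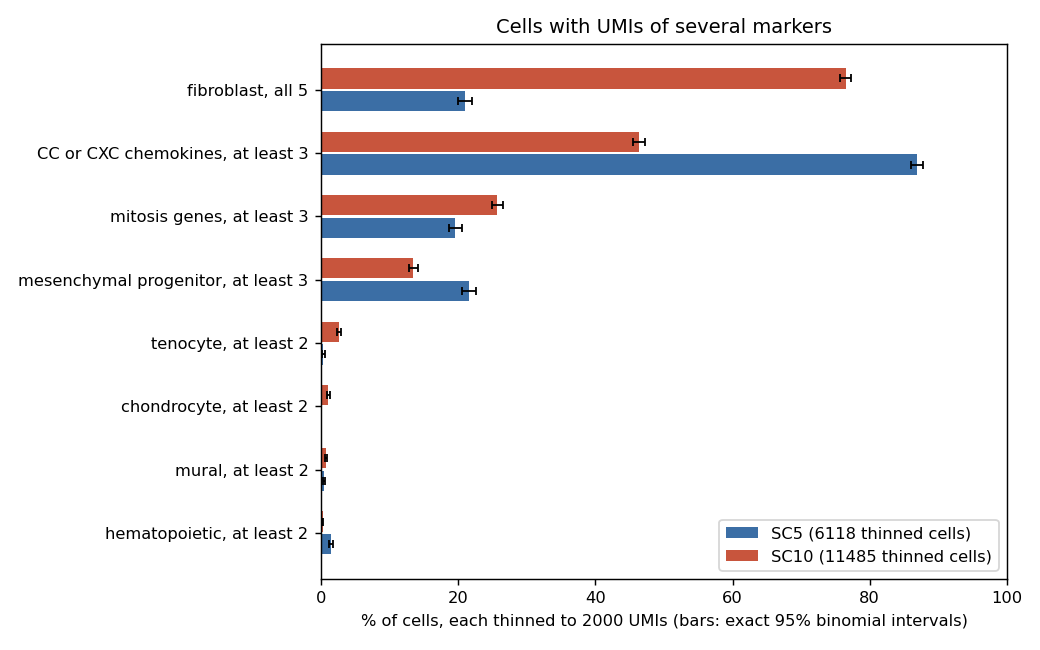
Percent of cells, each thinned to 2000 UMIs, that held UMIs of several markers of a group, in SC5 (6118 cells) and SC10 (11485 cells), with exact 95% binomial intervals for counting error as bars. The fibroblast share was 21.0% in SC5 and 76.5% in SC10, the chemokine share 86.9% and 46.4%, and the progenitor share 21.6% and 13.4%.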

How the data were processed

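Single-cell libraries of sorted GFP+ cells were made with the 10x Chromium 3' kit. The authors used Cell Ranger with the mm10 genome, the file headers giving version 3.1.0 and the study's methods a later one, and the deposited values are UMI counts per gene and barcode without normalisation. Seurat 3.1.2 is named in the submitters' processing notes. Here, cells were filtered by the limits given above, UMIs were summed per library over 29100 autosomal genes of 31055 in the matrices (positions from GENCODE M21), and log2 CPM ratios were taken with exact Poisson intervals at 95%. For these ratios, any count under 3 in a library was raised to a floor of 3 counts. Cells were drawn down without replacement to 2000 UMIs for shares, with exact Clopper-Pearson intervals, and shallower cells were left out (83 in SC5, 118 in SC10). Intervals cover counting error only. The autosomal total was 96817554 UMIs in SC5 and 186566042 in SC10. No clustering was done, and doublets were not removed from the main values. The 39 gene lists, the markers and the comparison were chosen with earlier results of these data known. Genes were named where they were among the 15 called with the largest ratio in each direction (at least 50 CPM and 5% of cells in the higher library), among the 4 most abundant of a list, or called within a list. Calculations used Python, numpy, scipy and scanpy, and the ratio and thinning steps were tested on simulated data. Alternatives covered scaling, level limits, thinning, shared barcodes, possible doublets (highest Scrublet scores at 0.8% per 1000 barcodes), hematopoietic cells, dividing cells and the deposited labels. Some genes that the rule names are not reported here.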

Additional observations from a re-analysis of the deposited data

Results flagged for a closer look

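Several genes and lists differed in direction between the 2 pairs of libraries that cross the barcode sets, SC10 against SC5 and SC_9 against SC4. With 1 library per condition, the difference between the pairs was not tested. Among genes with at least 50 CPM, 5 were called lower in the first pair and higher in the second. Ifi27l2a, an interferon-induced gene, had log2 ratios of -1.68 and 1.77. Sfrp4 had -1.51 and 3.25. Tnxb, which encodes the matrix protein tenascin-X, had -1.46 and 3.52. Lpl had -1.45 and 1.84, and Clec3b, the tetranectin gene, had -1.22 and 3.66. Tnxb and Clec3b were at 351 and 1722 CPM in uninjured muscle (SC3), far above SC5 (9.94 and 24.4 CPM) and SC10 (3.61 and 10.5 CPM).

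Relative to the median of all tested genes, the list median of interferon-stimulated genes was -0.90 in SC10 against SC5 and 1.73 in SC_9 against SC4. For complement genes these were -0.69 and 1.14. Smooth muscle contractile genes went the other way, with 1.03 and -0.55.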

How the results depend on the processing

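No paired analysis was possible because each condition had 1 library and the labels carry no replicate numbers, and for the same reason no library could be left out. Without the UMI minimum, with the barcodes shared with SC_9 kept, or with all shared barcodes, possible doublets, cells with hematopoietic markers or dividing cells left out, and after thinning, the counts stayed between 1193 and 1241 genes higher and between 310 and 391 lower in SC10. The scale mattered more: the CPM ratio alone gave 2571 genes higher (88.7% of calls, against 78.6%), and the median-centred ratio alone gave 820 lower (59.4% higher). A minimum of 1 CPM gave 560 genes lower and one of 20 CPM gave 201. For 30 of 30 leading genes the share of cells differed in the direction of the call, also without thinning and at 4000 UMIs. These genes were chosen by ratio and by share in the higher library, from the same counts. Their direction was therefore largely set in advance, and the count is no check on the calls.

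With the conditions as deposited, SC10 against SC_9, 124 genes were higher, 743 lower, and 12 of 39 lists (19 against SC5) had a median above that of all genes. Of the 1199 genes higher against SC5, 14 were higher and 113 lower against SC_9, and of the 326 lower genes 54 were lower and 12 higher. A change of sign was counted only for called genes, and for lists with a median log2 ratio of at least 1 in size on both scales. Such list medians turned to -0.33 for fibrillar collagens, -3.72 for cartilage, -2.33 for osteogenic, -0.89 for immediate early and -0.30 for limb transcription factor genes. Among the 124 genes named in the text, 58 that were called against SC5 turned as well. Turns of uncalled genes were not counted. Cartilage, bone and tendon genes were then at -3.12 (Acan), -3.65 (Alpl), -4.42 (Col2a1), -2.39 (Col11a1), -1.92 (Ibsp) and -0.39 (Scx). Fibrous matrix genes were at -1.22 (Col1a1), -0.64 (Col1a2), -0.16 (Col5a1), -0.30 (Col5a2), -0.99 (Aspn), -0.45 (Fn1), -0.90 (Igfbp7), -0.67 (Postn) and -1.10 (Tnn). Genes of collagen maturation and breakdown were at -0.51 (Crtap), -0.43 (P3h3), -0.19 (P3h4), -0.11 (P4ha3), -0.67 (Mmp14) and -0.84 (Timp2). Regulatory genes were at -0.77 (Jun), -0.31 (Jund), -0.90 (Fos), -1.36 (Klf2), -0.75 (Cebpd), -1.14 (Hist1h2ap), -0.045 (Ier5l), -0.031 (Prr7), -0.92 (Hoxa11) and -0.55 (Twist1). Signalling genes were at -2.25 (C1qtnf3), -1.04 (Sfrp1), -0.24 (Smad7), -1.12 (Socs3), -0.50 (Spry1) and -1.31 (Cd59a). Among genes called lower against SC5, chemokine and cytokine genes were at 1.41 (Ccl2), 0.22 (Cxcl1), 0.93 (Cxcl2), 1.83 (Cxcl3), 0.55 (Cxcl5), 2.88 (Il11) and 1.86 (Il1rl1). Metal, redox and AP-1 genes were at 0.034 (Mt1), 0.061 (Mt2), 0.78 (Hmox1), 2.11 (Slc7a11), 0.12 (Fth1), 0.42 (Ftl1) and 1.30 (Fosl1). The others were at 0.16 (Eno1), 0.79 (Slc2a1), 0.010 (Ndrg1), 0.16 (Sdf2l1), 0.64 (Inhba), 0.44 (Lmcd1) and 0.18 (Thbd). Depth limits genes near the floor, such as Col2a1 with 11 UMIs in SC5. The cause of these changes was not tested.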

Other observations

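SC_9 and SC10 shared 944 barcodes, and 938 of them held more UMIs in SC_9, with medians of 42228 UMIs in SC_9 and 870 in SC10. Of the 1199 genes higher in SC10, 177 (14.8%) had an SC10 level within the range of SC3, SC4 and SC5, as did 93 (28.5%) of the 326 lower genes. The share of all tested genes within that range was not computed. Spp1, the osteopontin gene, was found in 16.6% (15.7 to 17.6) of SC5 cells and 35.3% (34.5 to 36.2) of SC10 cells after thinning, and the richest 5% of cells held 77.1% of its thinned UMIs in SC5 and 50.2% in SC10. Prg4, the lubricin gene, was held by 22.7% and 21.0% of thinned cells, with 55.6% and 58.9% of its UMIs in the richest 5%.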
